A study of Mus musculus with 12 samples.

Results

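The 37 genes described here encode assembly factors, proteins that help build the 5 complexes of mitochondrial oxidative phosphorylation without being lasting parts of them. They were taken as a fixed list of gene symbols, and all 37 were among the 24062 genes of the count tables: 13 for complex I, 2 for complex II, 5 for complex III, 14 for complex IV and 3 for complex V. The libraries were poly(A) RNA-seq of whole liver and whole gastrocnemius, a calf muscle, from the same 6 female C57BL/6N mice on chow. The wild-type (WT) animals 6, 8 and 9 were 9.0, 9.0 and 7.4 weeks old. Animals 5, 7 and 12, at 9.0, 7.4 and 8.6 weeks, carried R135W on both alleles of Mars2 (R135W/R135W). This is an amino acid change in the enzyme that charges the mitochondrial methionine tRNA. The 4 groups are liver WT, liver R135W, gastrocnemius WT and gastrocnemius R135W, each with 3 libraries, and values are given below in the animal orders 6, 8, 9 and 5, 7, 12. No batch or litter was named in the labels.

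Complexes I, III, IV and V join subunits made from mitochondrial DNA inside the organelle with subunits made from nuclear genes in the cytosol, while all subunits of complex II are nuclear. Assembly factors hold part-built modules together, insert heme, copper, flavin and iron-sulfur clusters, and stabilise newly made mitochondrial proteins until their partners arrive. All 37 are themselves nuclear genes, and loss of many of them causes mitochondrial disease in people, often with liver, muscle or brain involvement. Liver and skeletal muscle both hold many mitochondria, and the comparison of genotypes asks whether the messages for these builders differ when mitochondrial translation depends on the R135W enzyme.

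Start-site sequences were looked at for motifs of factors known to act on nuclear genes of respiration. A RefSeq promoter window on the GRCm38.p6 build, 250 bases before to 50 after the annotated start, was matched for 31 of the 37 genes; Acad9, Ndufaf6, Cox17, Cox18, Coa6 and Tmem70 had no match. Both strands were searched. The ETS-family letters CCGGAAG stood in 12 of 31 windows (38.7%, against 12.0% of 16749 mouse promoter windows), the YY1 letters AAGATGGC in 5 (16.1% against 3.3%), the NRF1 letters (GCGC, any base, then TGCGC) in 3 (9.68% against 6.68%), the CRE letters TGACGTCA in 2 (6.45% against 2.38%) and the ERR letters TCAAGGTCA in 0 (against 0.334%). The NRF1 letters were in the windows of Ndufaf4, Ndufaf5 and Uqcc2, and the CRE letters in those of Nubpl and Ttc19. Cox10, Cox20 and Uqcc2 held more than 1 kind of motif. These shares describe letters in a window and show neither binding nor control.

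The 250 bases before the start are printed for 4 genes on which the expression results turn. Ndufaf4 (chr4:24897833-24898082, plus strand) was the member called between genotypes. Uqcc2 (chr17:27133892-27134141, minus strand) had the highest muscle level. Cox20 (chr1:178318903-178319152, plus strand) had the highest liver level among members with no shared exon. Ndufaf5 (chr2:140170396-140170645, plus strand) had the largest difference between tissues. Each is written 5′ to 3′ on the gene's strand, with motif letters in capitals: NRF1 in Ndufaf4 and Uqcc2, and ETS followed by YY1 in Cox20. The NRF1 letters of Uqcc2 and the ETS letters of Cox20 lie on the opposite strand. No motif of the 5 lies wholly within the Ndufaf5 stretch; its NRF1 letters reach into or lie in the 50 bases after the start.
Ndufaf4: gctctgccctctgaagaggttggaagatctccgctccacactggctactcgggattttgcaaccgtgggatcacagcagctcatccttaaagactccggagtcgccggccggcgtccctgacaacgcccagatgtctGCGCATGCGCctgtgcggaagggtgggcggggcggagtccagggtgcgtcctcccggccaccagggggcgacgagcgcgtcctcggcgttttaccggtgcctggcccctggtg
Uqcc2: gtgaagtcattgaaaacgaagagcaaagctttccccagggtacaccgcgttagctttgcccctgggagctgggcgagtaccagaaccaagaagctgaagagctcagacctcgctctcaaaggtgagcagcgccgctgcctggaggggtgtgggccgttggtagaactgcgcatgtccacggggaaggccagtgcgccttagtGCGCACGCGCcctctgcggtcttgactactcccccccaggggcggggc
Cox20: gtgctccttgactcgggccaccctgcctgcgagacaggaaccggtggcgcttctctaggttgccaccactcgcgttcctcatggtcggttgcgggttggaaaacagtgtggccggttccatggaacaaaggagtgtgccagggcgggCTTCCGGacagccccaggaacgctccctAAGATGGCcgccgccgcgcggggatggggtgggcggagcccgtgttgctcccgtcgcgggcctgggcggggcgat
Ndufaf5: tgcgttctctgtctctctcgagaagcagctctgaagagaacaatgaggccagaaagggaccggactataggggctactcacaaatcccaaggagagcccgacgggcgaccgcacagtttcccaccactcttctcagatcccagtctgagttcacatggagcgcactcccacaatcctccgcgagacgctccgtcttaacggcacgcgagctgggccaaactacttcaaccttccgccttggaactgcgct

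The libraries held 20751583 to 30460237 counted fragments. Members had 23 (Lyrm7) to 5592 (Coa5) counts per library, and 36 of 37 had at least 100 in every library. Tissue identity was clean: 6 skeletal muscle markers together reached a level of 0.578 to 1.23 in liver against 67130 to 89210 in muscle, and 6 hepatocyte markers 5.98 to 28.5 in muscle against 41370 to 53870 in liver. Levels throughout are CPM (counts scaled to library size, with TMM factors) divided by exon length in kilobases, and genes are set beside each other on this scale only. The length is the annotated exon total of a gene, and a fragment was counted for every gene it overlapped. The order of levels between genes is therefore approximate. Mars2 itself was at 0.776, 0.867 and 1.18 in liver WT, 0.903, 0.834 and 1.26 in liver R135W, 4.45, 3.78 and 4.18 in gastrocnemius WT and 3.69, 3.29 and 3.08 in gastrocnemius R135W. A missense change need not alter RNA level, so these values check no label.

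Levels of the 37 genes covered a wide span in each group. In liver WT group means ran from 0.677 for Lyrm7, the chaperone of the Rieske iron-sulfur protein, to 96.1 for Sco2, with a median of 10.9. Most of the Sco2 exon length is shared with Tymp and Ncaph2, so its counts are not those of Sco2 alone. In gastrocnemius WT they ran from 1.99 for Sco1 to 159 for Uqcc2, a cytochrome b assembly factor, with a median of 14.6. The highest liver levels after Sco2 belonged to small proteins of complex IV: Cox20 at 92.6 ± 17.6, the copper chaperone gene Cox17 at 68.1 ± 4.51 and Coa3 at 49.3 ± 5.01 (SD, n = 3). Sco2 and Cox20 did not differ beyond their spread in liver, where the Sco2 mean had an SD of 22.4. In muscle the order was Uqcc2 at 159 ± 2.69, Cox14 at 133 ± 7.94, Cox17 at 109.6 ± 9.06 and Ecsit at 58.6 ± 0.547, and the first 3 were separated by more than their SDs. The coefficient of variation of a member over 3 animals had a median of 9.31% in liver WT and 8.62% in liver R135W, against 5.96% and 5.65% in the muscle groups.

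**Figure D1:**
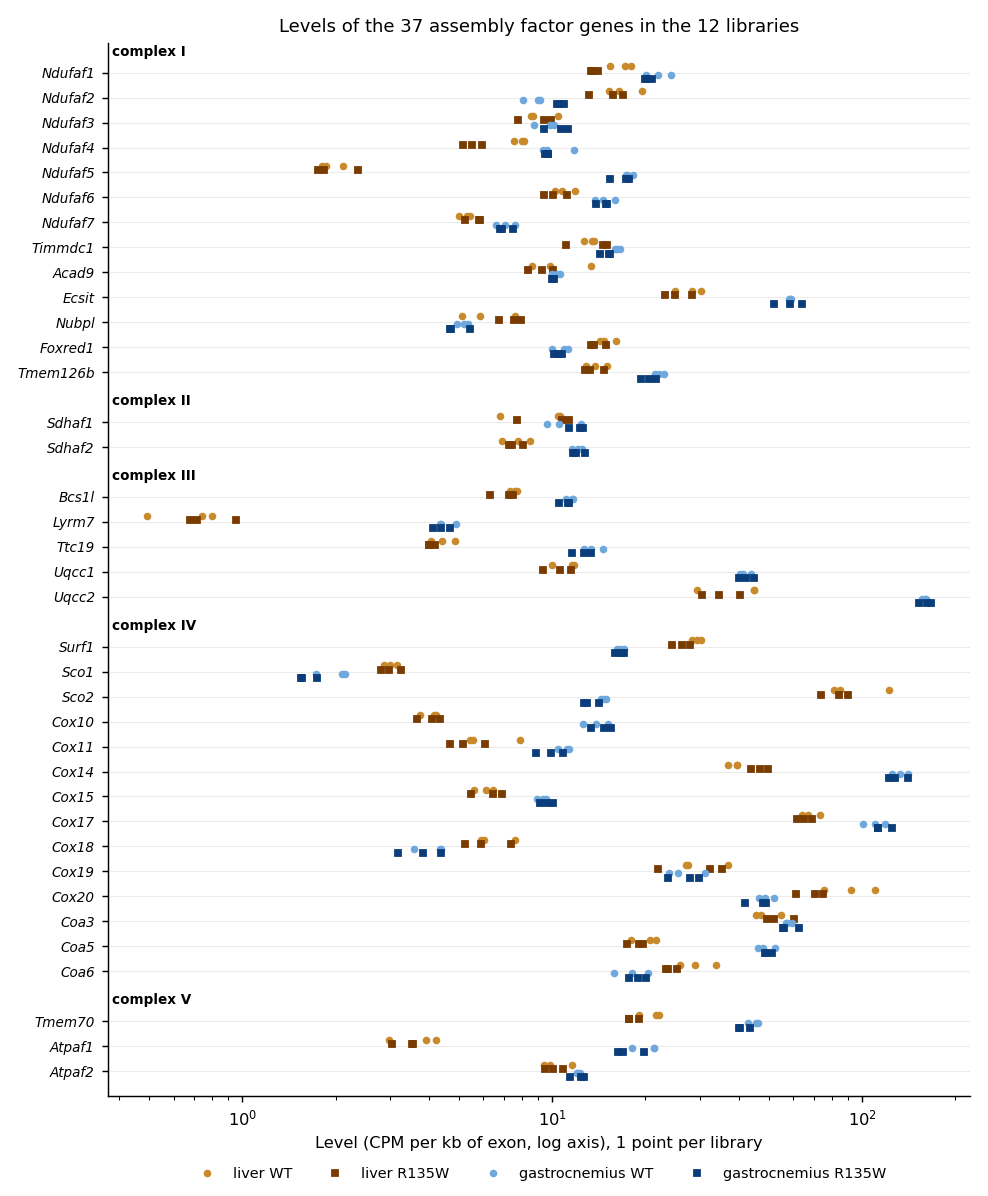
Level of each assembly factor gene (CPM per kb of exon, log axis) in the 12 libraries, 1 point per library, by complex; circles are WT and squares R135W, brown tones liver and blue tones gastrocnemius. The points of the 2 tissues lie far apart for Ndufaf5, Lyrm7, Uqcc1, Uqcc2, Atpaf1 and Sco2, while WT and R135W points of a tissue mostly lie together. Sco2 shares most of its exon length with other genes.

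The 2 tissues differed for most members. In WT animals all 5 complex III factors and all 3 complex V factors were lower in liver than in gastrocnemius, as were 8 of 13 for complex I and 1 of 2 for complex II, whereas complex IV was divided, with 6 of 14 higher and 7 lower in liver. By edgeR's quasi-likelihood test with Benjamini-Hochberg adjustment over all genes, 8 of 37 members (21.6%) were higher in liver, where 40.9% of all 15414 tested genes were, and 24 (64.9%) were lower, where 41.2% of all genes were. In R135W animals 9 were higher (24.3%, with 41% of all genes) and 22 lower (59.5%, with 41.1% of all genes). The share of members called in either direction is close to that of all genes. Every liver value lay above every muscle value for 8 of 37 members (21.6%) in WT, and below for 24 (64.9%). Of all tested genes 41.4% and 42.4% did. In R135W the shares were 24.3% and 59.5% of members, and 41.9% and 42.1% of all tested genes. The median log2 difference of the members, liver minus gastrocnemius, was -0.43 in WT and -0.58 in R135W, and that of all tested genes was 0.00 in both. These are bulk tissues, so fewer cells of a type and less RNA per cell cannot be told apart.

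In both genotypes 8 of 37 members (21.6%) were called higher in liver and 22 (59.5%) lower, where 38.1% and 38.5% of all 15414 tested genes were; 0 members and 0.0843% of all genes were called in opposite directions. Coa3 and Timmdc1 were called in WT animals only and Nubpl in R135W animals only; the difference between genotypes, tested as an interaction, was called for none of them. Acad9, Cox19, Ndufaf3 and Sdhaf1 were called in neither. The calls of Coa3 (log2 -0.23, SE 0.10) and Atpaf2 (-0.24, SE 0.10) in WT were each lost under 12 of 20 alternative settings, and that of Timmdc1 (-0.29, SE 0.10) under 3.

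**Figure D2:**
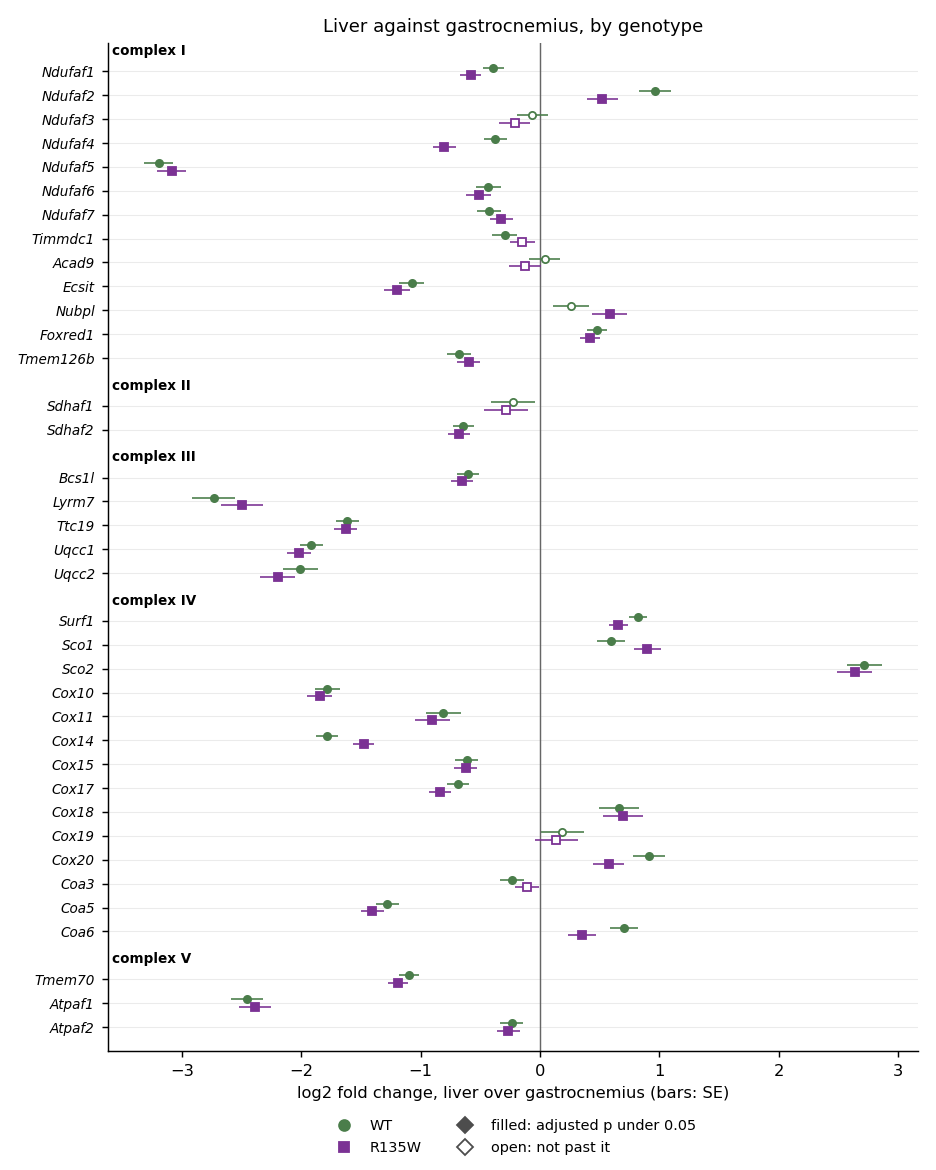
Log2 fold change of each member between liver and gastrocnemius, with its SE as a bar, in WT (circles) and R135W animals (squares); filled symbols passed an adjusted p of 0.05. All complex III and V symbols lie below 0, and the complex IV symbols spread from -1.85 (Cox10 in R135W) to 2.72 (Sco2 in WT). Sco2 shares most of its exon length with other genes.

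Complex I factors act on separate modules. Ndufaf3 and Ndufaf4 bind the early ubiquinone-binding (Q) module, Ndufaf5 hydroxylates and Ndufaf7 methylates an arginine of its subunits, and Ndufaf1, Ecsit, Acad9, Tmem126b and Timmdc1 belong to or work with the membrane-arm intermediate. Ndufaf5 showed the largest tissue difference of all 37. Its level was 1.81, 2.12 and 1.87 in liver WT, 1.76, 2.36 and 1.84 in liver R135W, 17.4, 18.3 and 17.3 in gastrocnemius WT and 17.7, 17.3 and 15.4 in gastrocnemius R135W. Every liver library lay far below every muscle library, a log2 difference of -3.19 in WT (SE 0.12, adjusted p = 1.92e-11) or 9.15-fold. Of the membrane-arm factors, Ecsit was 2.11-fold lower in liver WT, Tmem126b 1.60-fold, Ndufaf1 1.31-fold and Timmdc1 1.23-fold, and Acad9 differed by a log2 of 0.04 (SE 0.13). Ndufaf4, Ndufaf6 and Ndufaf7 were 1.30-fold, 1.35-fold and 1.34-fold lower in liver WT.

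Of the 3 late-acting complex I factors, 2 were higher in liver WT and 3 in liver R135W, where 40.9% and 41% of all tested genes were. Ndufaf2, which rides on a late intermediate, was at 19.5, 15.3 and 16.4 in liver WT, 15.8, 16.99 and 13.1 in liver R135W, 9.04, 8.06 and 9.14 in gastrocnemius WT and 10.9, 10.4 and 10.6 in gastrocnemius R135W. Liver lay above muscle in all libraries, by a log2 of 0.96 in WT (SE 0.13, adjusted p = 1.4e-05) and 0.52 in R135W (SE 0.13, adjusted p = 0.00222). Foxred1 was 1.40-fold higher in liver WT and 1.34-fold higher in liver R135W. Nubpl, which delivers iron-sulfur clusters to complex I, was at 5.12, 5.83 and 7.59 in liver WT, 6.73, 7.55 and 7.91 in liver R135W, 5.36, 4.93 and 5.21 in gastrocnemius WT and 5.42, 4.72 and 4.68 in gastrocnemius R135W. Its tissues overlapped in WT animals, and in R135W animals liver lay above muscle by a log2 of 0.58 (SE 0.15, adjusted p = 0.00247).

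For complex II, Sdhaf2, needed to attach flavin to the catalytic subunit, was at 6.89, 8.51 and 7.78 in liver WT, 7.42, 8.05 and 7.24 in liver R135W, 12.1, 11.6 and 12.5 in gastrocnemius WT and 11.9, 11.7 and 12.7 in gastrocnemius R135W. The tissues did not overlap, with a log2 difference of -0.64 in WT (SE 0.09, adjusted p = 1.92e-05). Sdhaf1, which serves the iron-sulfur subunit, was at 9.29 ± 2.17 in liver WT and 10.9 ± 1.41 in gastrocnemius WT (SD, n = 3) and was not called.

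The 5 complex III factors were lower in liver in both genotypes, with a median log2 difference of -1.91 in WT and -2.02 in R135W. Lyrm7 was at 0.492, 0.742 and 0.798 in liver WT, 0.717, 0.952 and 0.680 in liver R135W, 4.89, 4.39 and 4.35 in gastrocnemius WT and 4.67, 4.11 and 4.37 in gastrocnemius R135W. Lyrm7 had the fewest reads of any member, 23 to 49 counts in a liver library, and its liver values lay below every muscle value, a log2 difference of -2.73 in WT (SE 0.18, adjusted p = 7.9e-09). Uqcc1 and Uqcc2, which act together on newly made cytochrome b, were 3.77-fold and 4.02-fold lower in liver WT. Ttc19, which clears fragments of the Rieske protein after its insertion, was 3.06-fold lower, and Bcs1l, the ATPase that inserts that protein, 1.52-fold lower.

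Complex IV factors lay on both sides. Both enzymes of heme A synthesis were lower in liver WT: Cox10, the heme farnesyltransferase, 3.44-fold and Cox15 1.53-fold. The Cox10 levels were 3.73, 4.21 and 4.16 in liver WT, 4.09, 4.36 and 3.67 in liver R135W, 15.2, 12.6 and 13.9 in gastrocnemius WT and 15.4, 13.3 and 14.7 in gastrocnemius R135W, with no overlap of tissues. Of the factors that handle the first and second catalytic subunits, Surf1, Cox18 and Cox20 were higher in liver WT, 1.77-fold, 1.58-fold and 1.88-fold, and Cox14 and Coa3, which bind the newly made first subunit, were lower. Cox14 was at 39.6, 39.6 and 36.9 in liver WT, 49.7, 46.8 and 43.8 in liver R135W, 132.7, 141 and 125 in gastrocnemius WT and 128, 140.3 and 122 in gastrocnemius R135W. That is a log2 difference of -1.78 in WT (SE 0.09, adjusted p = 3.66e-10) and -1.48 in R135W (SE 0.09). Coa5 was 2.43-fold lower in liver WT.

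Of the 6 copper delivery factors of complex IV, 3 were higher and 2 lower in liver WT, where 40.9% and 41.2% of all tested genes were. Cox17, which hands copper to the Sco proteins, was 1.61-fold lower in liver WT and Cox11, which passes copper to the first subunit, 1.75-fold lower, while Sco1 and Coa6 were 1.51-fold and 1.63-fold higher and Cox19 was not called. Sco2, a copper carrier for the second subunit, was at 122, 81.2 and 85.2 in liver WT, 90.4, 84.3 and 73.7 in liver R135W, 14.6, 14.4 and 14.9 in gastrocnemius WT and 12.95, 12.7 and 14.2 in gastrocnemius R135W. The fitted difference was 2.72 in WT (SE 0.15, adjusted p = 8.34e-10), but these counts are not those of Sco2 alone. Of its exon length, 74.3% is shared with Tymp on the same strand and 72.4% with Ncaph2 on the opposite strand, and a fragment was counted for every gene it overlapped, without regard to strand. Tymp stood at 82.9 ± 19.3 in liver WT and 7.59 ± 0.289 in gastrocnemius WT (SD, n = 3), a log2 difference of 3.45 (SE 0.16), and Ncaph2 differed by 0.74 (SE 0.11). How much of the Sco2 signal comes from either gene was not tested.

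Cox11, Cox15 and Ecsit also share over 10% of their exon length with another gene, 12.7%, 12.5% and 10.8%. Without these 3 and Sco2, 7 of 33 members were higher and 21 lower in liver WT, and 8 and 19 in R135W, beside the 40.9% and 41.2% of all genes in WT and 41% and 41.1% in R135W, a count chosen after the data were seen. Surf1 shares 6.81% with Surf2 and Ttc19 0.466% with Ncor1.

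All 3 complex V factors were lower in liver. Atpaf1, the chaperone of the beta subunit of the ATP synthase head, was at 2.98, 4.23 and 3.90 in liver WT, 3.05, 3.52 and 3.56 in liver R135W, 21.3, 21.3 and 18.2 in gastrocnemius WT and 16.9, 19.8 and 16.3 in gastrocnemius R135W. Every liver library was lower, by a log2 of -2.45 in WT (SE 0.14, adjusted p = 1.1e-09). Tmem70, which supports assembly of the membrane ring, was 2.14-fold lower in liver WT, and Atpaf2, the chaperone of the alpha subunit, 1.18-fold lower.

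Structural subunits made from nuclear genes were also lower in liver. The subunit lists hold none made from mitochondrial DNA. Of 80 subunit genes 71 were lower in liver WT and 3 higher, with a median log2 difference of -0.87. In R135W 73 were lower and 3 higher. Beside these and the lists below, 40.9% of all 15414 tested genes were higher in liver WT and 41.2% lower. In R135W 41% were higher and 41.1% lower. By complex, 33 of 36 subunits were lower for complex I, 4 of 4 for complex II, 8 of 9 for complex III, 12 of 15 for complex IV and 14 of 16 for complex V in WT. The complex IV list includes muscle isoforms such as Cox6a2 and Cox8b. Other assembly factors, from a list of 25 measured genes, were divided as the members were, with 5 higher and 16 lower in liver WT. Genes of copper and heme supply ran opposite to most members, with 12 of 15 higher in liver WT and 3 lower, among them the copper importer gene Slc31a1 at 3.16 (SE 0.11) and Ccs, the copper chaperone of superoxide dismutase, at 3.75 (SE 0.14). Of the iron-sulfur cluster core 3 of 12 were higher and 6 lower. Of 10 regulators of mitochondrial biogenesis 0 were higher and 6 lower, and of 13 markers of mitochondrial mass 3 were higher and 8 lower, with Cs, the citrate synthase gene, at -2.64 (SE 0.11).

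Set against the nuclear-gene subunits of their complex, the members' summed level moved in different ways by complex. Subunits made from mitochondrial DNA, on which some members act, are not in these sums. For complex III the members summed to 2.68%, 3.15% and 2.44% of the 9 subunits in liver WT and to 6.51%, 6.17% and 6.48% in gastrocnemius WT; liver R135W had a mean of 2.70% and gastrocnemius R135W of 6.55%. For complex I the order was the reverse, at 3.76% ± 0.243 in liver WT and 2.58% ± 0.0987 in gastrocnemius WT (SD, n = 3). Complex IV members summed to 12.6% ± 0.426 of the subunits in liver WT and 8.40% ± 0.263 in gastrocnemius WT, and to 9.78% and 7.83% without Sco2, Cox11 and Cox15, which share over 10% of their exon length with another gene. Complex II stood at 2.76% ± 0.422 and 2.01% ± 0.107, and complex V at 0.785% ± 0.0574 and 0.889% ± 0.0427. Within a tissue the means of the genotypes differed by less than the larger of their SDs, except in gastrocnemius for complex II, at 2.01% in WT and 2.14% in R135W, and for complex V, at 0.889% and 0.822%. These ratios were not tested. Uqcc2 alone makes up most of the complex III sum, with a level of 159 of 230 in gastrocnemius WT and 39.6 of 63.3 in liver WT.

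**Figure D3:**
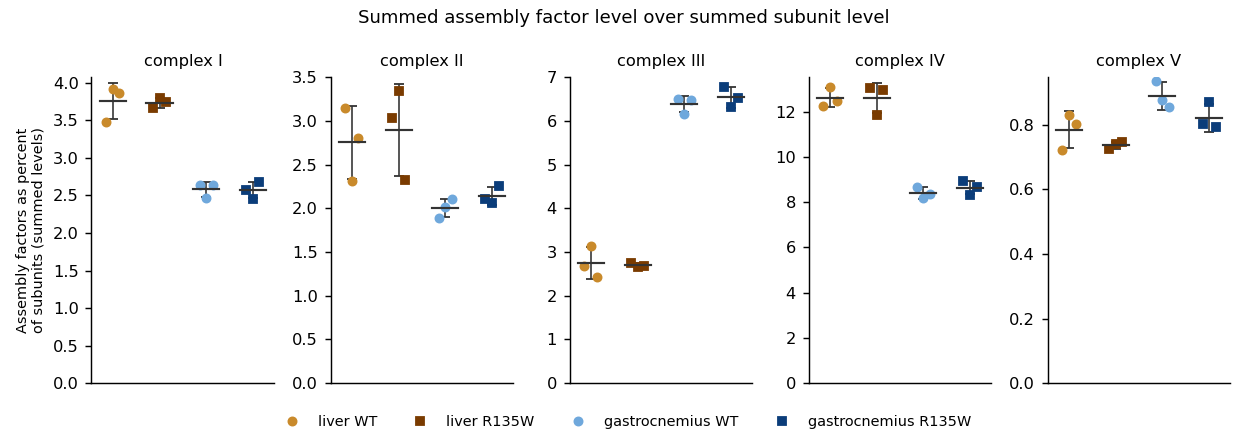
Summed level of the assembly factor genes as a percent of the summed level of the nuclear subunit genes of the same complex. Shown is 1 point per library with mean and SD, each complex on its own axis from 0. Complex III points are higher in gastrocnemius than in liver, and complex I and IV points are lower.

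Between genotypes in liver, Ndufaf4 fell and no other member passed the test. Its level was 7.97, 7.55 and 8.12 in the WT livers and 5.95, 5.50 and 5.15 in the R135W livers, so that all 3 R135W values lay below all 3 WT values. The log2 fold change was -0.52 (SE 0.11, adjusted p = 0.0453 by edgeR's quasi-likelihood test), or 1.43-fold lower, on 424 to 746 counts per library. Ndufaf4 lies on chromosome 4 from 24898083 to 24905001 (mm10, plus strand) and shares no exon with another gene; its protein works with that of Ndufaf3 on the early Q module of complex I, and Ndufaf3 differed by -0.03 (SE 0.16). In gastrocnemius Ndufaf4 was at 11.7, 9.33 and 9.61 in WT and 9.67, 9.73 and 9.48 in R135W, overlapping groups with a fold change of -0.10 (SE 0.09).

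The liver call of Ndufaf4 stands close to the threshold. Its adjusted p was 0.0132 by DESeq2 and 0.0462 by limma-voom, but 0.0987 with age as a covariate, and without any single animal it ran from 0.086 (without WT animal 6) to 0.149 (without WT animal 9), with log2 fold changes of -0.57 to -0.46. Over all tested genes, 0.524% were called lower and 2.76% higher in R135W liver (73 and 384 of 13935, and 3 and 81 without WT animal 9), against 1 and 0 of 37 members. The number of members called higher was 0 by edgeR, DESeq2 and limma-voom alike, and 4 members had an unadjusted p under 0.05. Counts at an unadjusted p, here and below, have no share of all tested genes beside them, so no excess is read from them.

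Markers of other cells moved in the same livers. All 11 macrophage markers were called higher in R135W liver by edgeR and DESeq2 and 10 by limma-voom, with a median log2 fold change of 1.09 by edgeR. Their summed level was 189 to 305 in WT and 543 to 584 in R135W. Called higher too were 4 of 5 tested monocyte markers by edgeR and limma-voom and 3 by DESeq2. The 6 listed monocyte markers had a summed level of 10.6 to 12.1 in WT and 21.9 to 28.6 in R135W. No marker of these lists was at 0 in a whole liver group. The summed level of 6 hepatocyte markers was 51340 to 53870 in WT and 41370 to 43820 in R135W, with a median log2 fold change of -0.28, and 0 of 6 were called by edgeR, 2 at an unadjusted p under 0.05, 2 by DESeq2 and 0 by limma-voom. Of 5 fibroblast and stellate cell markers 1 was called higher by edgeR, Col1a1 at 0.67 (SE 0.15, adjusted p = 0.0455 by edgeR). DESeq2 called 2 and limma-voom 1. Their summed level was 67.5 to 86.8 in WT and 78.5 to 80.5 in R135W. Of 4 B cell markers 0 were called by edgeR and limma-voom and 1 by DESeq2, 3 at an unadjusted p under 0.05, with a summed level of 2.89 to 4.83 in WT and 5.42 to 8.25 in R135W. Neutrophil markers summed to 2.50 to 6.19 in WT and 7.89 to 14.8 in R135W, and T and NK cell markers to 1.90 to 2.24 and 2.41 to 3.09. The part of cell makeup in the Ndufaf4 difference was not tested.

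The other members with the smallest liver p were Cox20, Ndufaf1 and Cox14, the last of them chosen after its values were seen, as was Ndufaf1. Cox20, which stabilises the second subunit of complex IV, was at 92.1, 110.4 and 75.3 in WT and 74.8, 70.5 and 61.4 in R135W liver. The groups just failed to overlap, with a fold change of -0.43 (SE 0.15, adjusted p = 0.198). Ndufaf1, at 17.2, 18.03 and 15.4 against 14.1, 13.4 and 13.3, differed by -0.31 (SE 0.11, adjusted p = 0.199). Cox14 was the one member whose R135W livers all lay above WT, at 0.27 (SE 0.11, adjusted p = 0.24). Fully below WT were Ndufaf4, Ndufaf1, Cox20, Surf1, Coa6 and Tmem70, 6 of 37 (16.2%), and above it 1 of 37 (2.7%), where of all tested genes 9.54% lay fully below and 14.1% above.

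In each remaining complex the smallest liver p belonged to a member that did not pass. For complex V it was Tmem70, at 19.1, 22.2 and 21.7 in WT and 17.7, 19 and 17.7 in R135W, with a difference of -0.22 (SE 0.11, adjusted p = 0.347). For complex III it was Ttc19, at 4.41, 4.85 and 4.05 in WT and 3.99, 4.01 and 4.19 in R135W, at -0.13 (SE 0.12). For complex II it was Sdhaf1, at 10.6, 6.79 and 10.5 in WT and 10.8, 11.3 and 7.70 in R135W, at 0.08 (SE 0.22). The groups of Ttc19 and Sdhaf1 overlapped. Over all 37 members the liver fold changes ran from -0.52 to 0.27 with a median of -0.09, and 28 were below 0; the median of all tested genes was -0.01, and 7062 of 13935 were below 0. The median SE was 0.131.

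**Figure D4:**
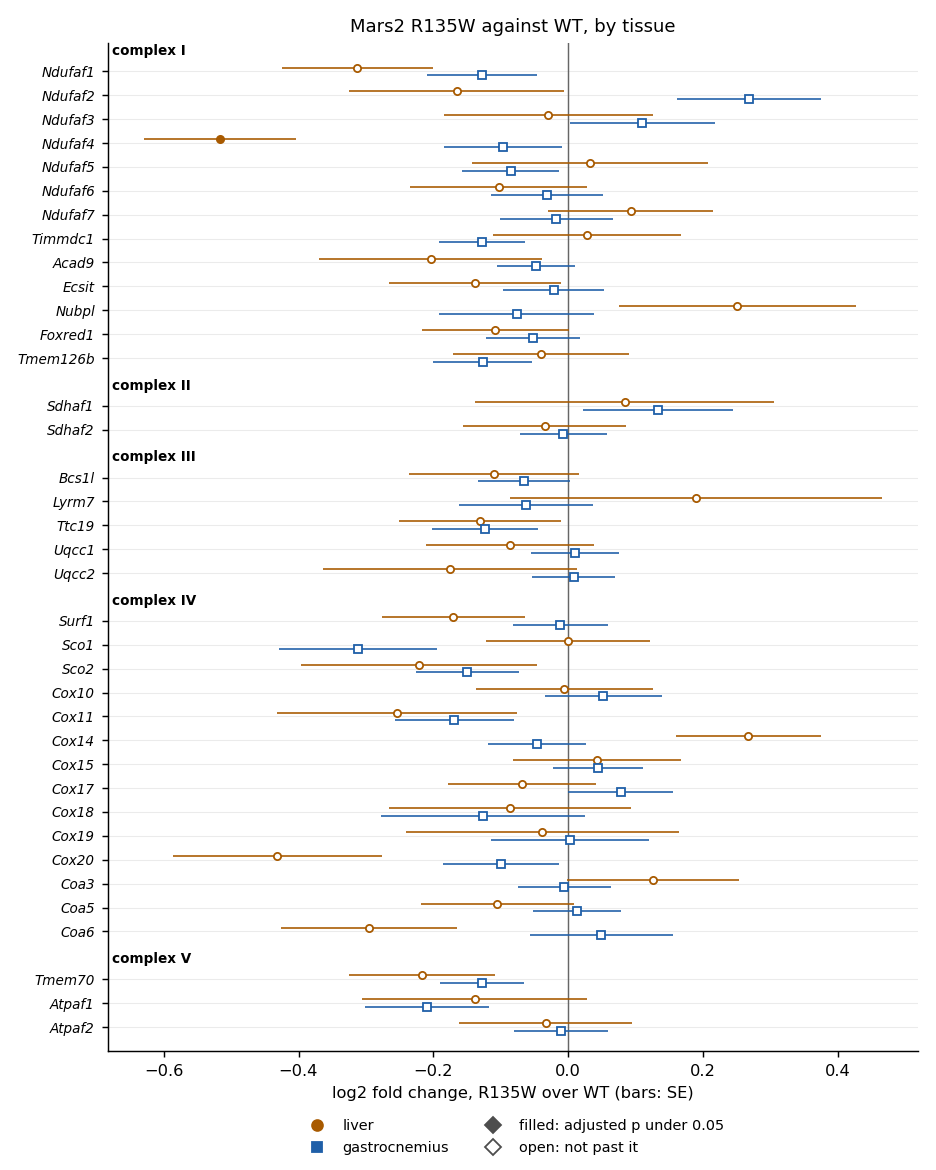
Log2 fold change of each member between R135W and WT, with its SE as a bar, in liver (circles) and gastrocnemius (squares); the filled symbol, Ndufaf4 in liver at -0.52, passed an adjusted p of 0.05. The other symbols lie between -0.43 and 0.27, and the liver bars are wider than the muscle bars for most genes.

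In gastrocnemius no member passed the test between genotypes. Of all 13826 tested genes 0.542% were called higher and 0.333% lower in R135W (75 and 46, and 1 and 2 without WT animal 8), against 0 and 0 of 37 members by edgeR, by DESeq2 and by limma-voom, with 3 members at an unadjusted p under 0.05. Those were Sco1, Ndufaf2 and Atpaf1. Sco1 was at 2.14, 2.10 and 1.73 in WT and 1.56, 1.74 and 1.55 in R135W, with groups that overlapped slightly and a fold change of -0.31 (SE 0.12, adjusted p = 0.335). In liver Sco1 was at 3.01, 3.15 and 2.87 in WT and 2.98, 2.81 and 3.25 in R135W.

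Ndufaf2 lay higher in all 3 R135W muscles, at 10.9, 10.4 and 10.6 against 9.04, 8.06 and 9.14, a fold change of 0.27 (SE 0.11, adjusted p = 0.371). Atpaf1 was at 21.3, 21.3 and 18.2 in WT and 16.9, 19.8 and 16.3 in R135W, with overlap and a fold change of -0.21 (SE 0.09, adjusted p = 0.427). Ttc19 had the smallest p for complex III, at 14.6, 13.4 and 12.7 in WT and 13.4, 12.7 and 11.6 in R135W, a difference of -0.12 (SE 0.08). Sdhaf1 had it for complex II, at 9.66, 12.4 and 10.6 in WT and 12.3, 11.3 and 12.6 in R135W, a difference of 0.13 (SE 0.11). Timmdc1 and Sco2 lay fully below WT in the R135W muscles, 2 of 37 (5.41%), and Ndufaf2 fully above, 1 of 37 (2.7%), where 7.14% and 9.1% of all tested genes did.

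Muscle members ran from -0.31 to 0.27 with a median of -0.05 and 26 of 37 below 0, beside a median of 0.00 over all genes. The median SE was 0.0778, smaller than in liver. Of 5 slow-fibre markers 0 were called in gastrocnemius by edgeR, 4 at an unadjusted p under 0.05, 1 by DESeq2 and 0 by limma-voom, with a median of -0.31 and a summed level of 825 to 915 in WT and 609 to 854 in R135W. The endothelial list summed to 49.99 to 54.4 in WT and 62.7 to 69.3 in R135W, with Kdr called higher at 0.77 (SE 0.08). Their part in the members' values was not tested.

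**Figure D5:**
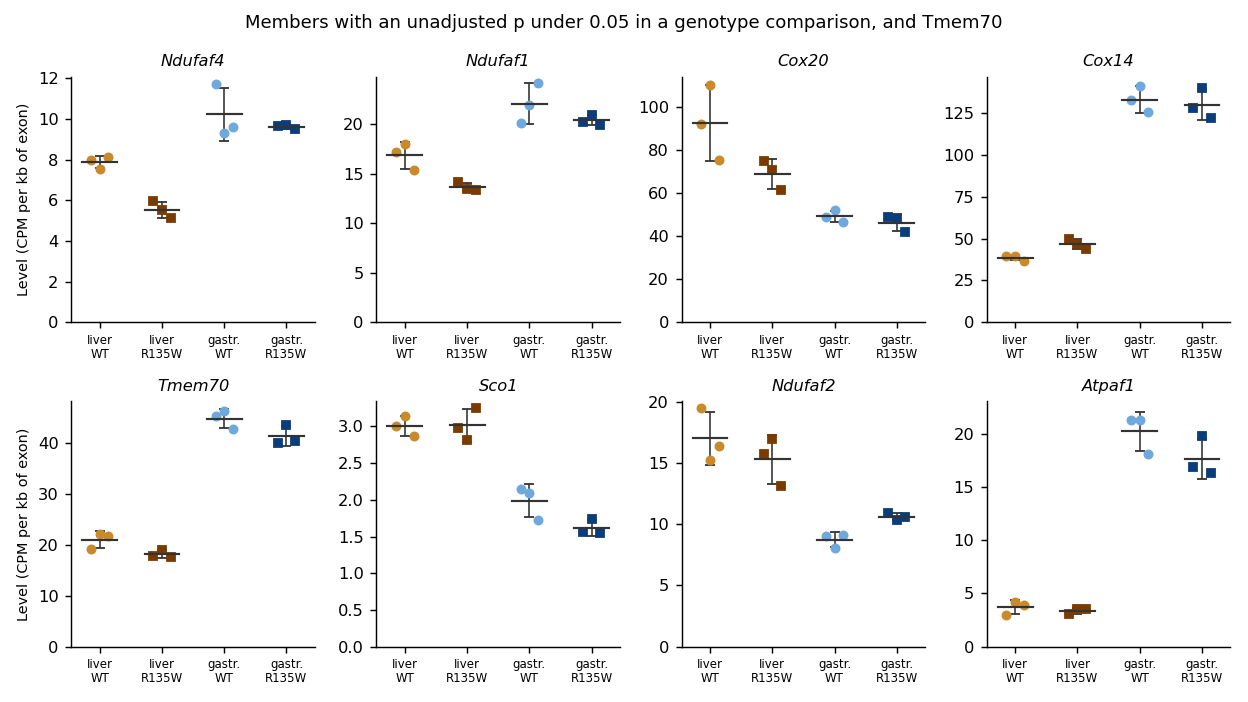
Level (CPM per kb of exon, axes from 0) in each library, with group mean and SD, of the 7 members with an unadjusted p under 0.05 in a genotype comparison and of Tmem70. Ndufaf4 points of R135W liver sit between 5.15 and 5.95, all below the WT liver points at 7.55 to 8.12, while its muscle points overlap.

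Whether the R135W difference itself differed between tissues was tested over all 12 libraries. None of the 37 members was called by edgeR, DESeq2 or limma-voom, with 3 at an unadjusted p under 0.05, where 0.0973% of 15414 genes were called higher in this contrast and 0.0324% lower (15 and 5, and 6 and 0 without the gastrocnemius library of WT animal 8). For Ndufaf4 the difference of the liver and muscle effects was -0.43 (SE 0.14, adjusted p = 0.315), so its fall in liver is not shown to be particular to that tissue. Cox14 had 0.31 (SE 0.12, adjusted p = 0.413) and Ndufaf2 -0.44 (SE 0.19, adjusted p = 0.445). Members ranged from -0.44 for Ndufaf2 to 0.32 for Nubpl.

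Other nuclear genes of the respiratory chain were counted in the same way. Of 77 tested subunit genes in liver 0 were called by edgeR, DESeq2 or limma-voom and 9 had an unadjusted p under 0.05, with a median fold change of -0.10; in gastrocnemius it was 0 of 80 by each of these tools, 3 unadjusted, with a median of -0.03. Over all the pathway lists, which also hold other assembly factors and genes of twin-cysteine protein import, copper and heme supply, iron-sulfur clusters, biogenesis and mitochondrial mass, 0 of 153 tested genes were called in liver by edgeR and limma-voom, 1 lower by DESeq2 in the copper and heme list, and 14 had an unadjusted p under 0.05. In gastrocnemius 0 of 156 were called by each tool, with 13 unadjusted.

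By position, 7 of the 37 members (18.9%) lie on chromosome 11, which holds 7.51% of the listed genes, and 4 lie on chromosome 1 with Mars2. Those 4 are Coa5, Bcs1l, Tmem70 and Cox20, at 17.8, 19.3, 38.6 and 123 Mb from Mars2, and none was called between genotypes. Cox17 and Timmdc1 both lie on chromosome 16, 145.1 kb apart. Both were lower in liver WT than in muscle, where 41.2% of all tested genes were, and Timmdc1 was not called in R135W.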

How the data were processed

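Liver and gastrocnemius poly(A) RNA of 6 mice was sequenced as 12 libraries, and all were used. Per the file headers, the authors deposited raw counts of fragments per gene symbol, made with featureCounts 1.5.2 over exons of the UCSC mm10 annotation, with primary alignments, read pairs, no strand option and a fragment counted for every gene it overlaps; exon lengths and positions are those of the same files. The submitters' processing notes name STAR 2.4.0 as the aligner. Genes were tested with edgeR 4.0.16 in R 4.3.3: filterByExpr by group, then TMM scaling, then the quasi-likelihood test, with p adjusted by Benjamini-Hochberg over every tested gene and a threshold of 0.05. Genotype was tested on the 6 libraries of a tissue, and tissue and the interaction on all 12 in 4 groups. An SE is a fold change (log2) over the root of its F statistic. All 37 members passed the filter on low counts in every comparison. The members, gene lists and tests were chosen with earlier results of these data known, so no list is independent evidence. By the rule for named genes, per-library values are given for members called between genotypes, else per complex for the smallest p in each genotype comparison, and per complex for the largest called tissue difference in each direction; other members are given by means, folds or counts. P-values measure the spread between these animals. Animal numbers in the labels tie each liver to a muscle of the same animal; deviations from group means correlated at -0.00662 to 0.0865 for the same animal and at -0.0821 to 0.0774 for different animals, and the fit was repeated with the animal as a block. Replicates differed by more than counting error, with a chi-squared per degree of freedom of 8.07 or more in every pair. Alternatives were RLE factors, DESeq2 1.42.0, limma-voom (limma 3.58.1), no filter and a 1 CPM filter, age, the animal block, a minimum change of 2-fold, other sample sets and leaving out each library. On simulated data the liver test recovered 71.1% of genes changed 2-fold among 13935 genes and the gastrocnemius test 85.9% among 13826. The test of the difference between tissues recovered 56% among 15414. In that simulation liver and muscle had the same base level for each gene, unlike in the data, so its recovery in the data may differ. Only 2-fold and 4-fold changes were simulated, so recovery of smaller ones, such as the 1.43-fold of Ndufaf4 in liver, was not measured. Promoter windows came from RefSeq (GRCm38.p6). Protein sequences were not used here.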

Additional observations from a re-analysis of the deposited data

How the results depend on the processing

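No member reversed its direction under any alternative while called. Of 481 member results under the alternatives of the liver genotype comparison 474 kept their side of the threshold. The other 7 lost the call, all of them Ndufaf4. Those 474 kept their direction or, where uncalled, changed sign by a shift smaller than the SE. The count of members called lower was 0 with age as a covariate. It was 0 to 0 over the 6 fits that leave out a library, against 1. In liver the number of genes called lower was 244 with DESeq2; a fit of all 12 libraries gave 763 higher and 294 lower; age as a covariate gave 243 higher and 31 lower; leaving out a library gave 81 to 242 higher and 3 to 78 lower. In gastrocnemius DESeq2 called 168 higher and 106 lower, the fit of all 12 libraries 15 and 5, and fits without a library 1 to 86 and 2 to 31. For the difference between tissues DESeq2 called 106 higher and 78 lower, limma-voom 7 and 0, and the animal as a replicate block 3 lower; fits without a library gave 6 to 19 higher and 0 to 15 lower. With the replicate block the members called between tissues were 8 higher and 23 lower in WT and 9 higher and 22 lower in R135W, and no other count moved by over 1.5 times. Demanding a change of more than 2-fold left 3803 genes higher and 3622 lower in liver WT, with 1 and 9 members, and 3856 and 3538 in R135W, with 1 and 11 members; this threshold is stricter by construction. Fits without a library gave 8 to 9 members higher and 21 to 24 lower in WT, and 8 to 9 higher and 21 to 22 lower in R135W. The summed level of complex I members in liver WT was 158 with RLE factors, against 156. Where not stated above, the cause of a change was not tested. Depth limits Lyrm7 in liver most, at 23 to 49 counts.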
